A study of Mus musculus with 27 samples.

Results

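Mouse embryonic fibroblasts (MEFs) that received no cardiac transcription factors (0TF) were compared after opposite manipulations of TGFβ signaling: TGFβ1 against the inhibitor SB431542 (SB), with the DMSO vehicle as the level between them. The comparison used 9 of the 27 arrays of the series, 3 per group, chosen by their labels, and took in all 19938 genes with a probe set of a single symbol. TGFβ1 was given at 2 ng/mL, SB at 0.5 µM, and DMSO cultures received the vehicle of SB. The other stated steps were the same in all 3 groups: the agents were added on the day before induction, the cultures received doxycycline at 2 µg/mL, and RNA was harvested on Day 3. The paper does not state whether TGFβ1 cultures also received DMSO. One label describes the 0TF cultures as carrying an empty vector and another as having no factor treatment. The extraction protocol mentions non-transduced MEFs, so which of these holds is not settled. The protocol for the MEF dishes also names lentiviruses for the rtTA transactivator and a Troponin T-GCaMP reporter. The cells are a mixed primary population from mid-gestation embryos rather than a clone, and the labels state that each group was made of independent biological replicates.

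TGFβ1 binds a complex of type I and type II receptors, and the type I receptor ALK5 phosphorylates Smad2 and Smad3, which enter the nucleus and regulate transcription. SB blocks the kinase of ALK5 and of its relatives ALK4 and ALK7, which carry activin and nodal signals, and so lowers whatever signal the culture makes for itself. In fibroblasts this pathway is known for driving the contractile myofibroblast state and matrix production, and for restraining adipocyte differentiation. A gene under steady control of the pathway would be graded in the order SB, DMSO, TGFβ1 or the reverse, whereas a gene that both agents push to the same side of DMSO has its extreme at the vehicle.

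The deposited values are log2 signals, so a difference of 1 is a doubling of signal. Replicate arrays were tight: the SD over genes of the log2 difference between arrays was 0.091 to 0.121 within a group, against 0.51 to 0.553 between TGFβ1 and SB cultures, 0.466 to 0.497 between TGFβ1 and DMSO cultures and 0.231 to 0.248 between SB and DMSO cultures. Array medians over genes were 8.40 to 8.42 in TGFβ1 cultures, 8.49 to 8.52 in SB cultures and 8.49 to 8.50 in DMSO cultures. The fibroblast label was checked on 16 markers: Vim, the mesenchymal intermediate filament, averaged 14.20 in TGFβ1, 14.19 in SB and 14.21 in DMSO cultures on the log2 signal scale, and Col1a1, a chain of type I collagen, 13.68, 13.80 and 13.86 in the same order. Of the 16, 2 were called higher and 5 lower with TGFβ1 than with SB (median -0.27), and 1 higher and 5 lower than with DMSO (median -0.26), so the list itself differed between the groups. Fap, a protease of activated fibroblasts, was higher than with SB by 1.42, and the proteoglycan Lum and the PDGF receptor Pdgfra were lower, at -2.40 and -1.07. As whole cultures were measured, fewer cells of a type and less RNA per cell cannot be told apart.

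TGFβ1 and SB cultures differed at 2470 genes (12.4% of those tested) by limma at an adjusted p under 0.05 and a fold of at least 1.5, the rule for every call here. Of these, 1081 (5.42%) were higher and 1389 (6.97%) lower in TGFβ1 cultures. Counts of TGFβ1 minus SB calls in the gene lists below are to be read beside these shares. After median centring of the arrays the split was 1418 higher and 1169 lower, because the arrays of TGFβ1 cultures had lower medians. Without the requirement on fold, 10286 genes passed an adjusted p under 0.05. The 3 TGFβ1 cultures did not overlap the 3 SB cultures at 12632 genes (63.4%), and 2469 of the 2470 called genes were among them.

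Most of this distance lay on the TGFβ1 side of the vehicle. TGFβ1 differed from DMSO at 2074 genes (10.4%), with 839 higher (4.21%) and 1235 lower (6.19%), or 1150 higher and 1050 lower after median centring. SB differed from DMSO at 478 genes (2.4%), with 252 higher (1.26%) and 226 lower (1.13%). Counts of calls against DMSO in the gene lists below are to be read beside these shares. At a share of 2.4%, a short list would hold few or no SB calls. Both arms share the DMSO cultures, so a shift common to those 3 cultures enters both with the same sign and cannot be told apart from a shared response.

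Graded genes were called between TGFβ1 and SB and had both arms at an adjusted p under 0.05 with opposite signs. There were 479 with TGFβ1 highest (2.4% of all genes tested) and 500 with SB highest (2.51%). Same-way genes had both arms past the same p with equal signs, and a summed shift of both arms past the call rule, which 2274 genes (11.4%) met, 954 of them upward (4.78%) and 1320 downward (6.62%). They numbered 289 higher in both treatments (1.45%) and 485 lower in both (2.43%). Counts of graded and same-way genes in the lists below are to be read beside these shares. When each arm had to be at least 1.5-fold, 49 and 91 graded genes and 22 and 98 same-way genes were left, in the same order.

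**Figure D1:**
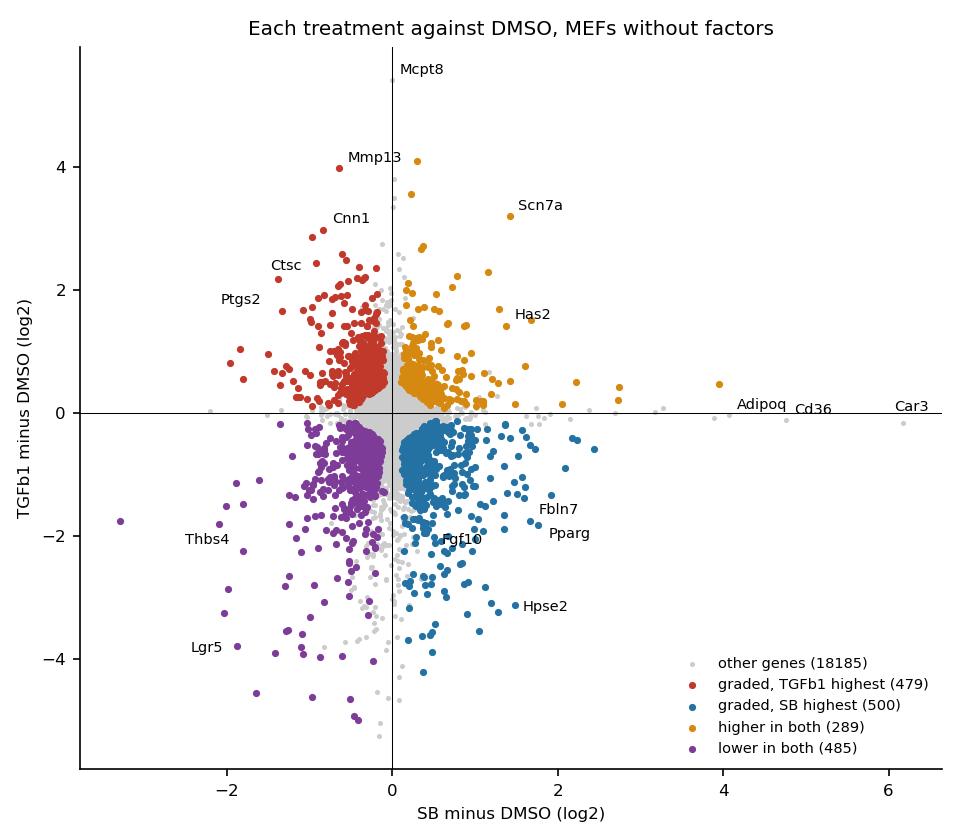
Each point is a gene, with the log2 difference between SB and DMSO cultures on the x axis and between TGFβ1 and DMSO cultures on the y axis (means of 3 cultures per group). Graded genes fill the upper left (479) and lower right (500) quadrants, same-way genes the upper right (289) and lower left (485), and Mcpt8 and Car3 lie almost on one axis each.

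The position of the vehicle was measured as the DMSO mean minus the SB mean over the TGFβ1 mean minus the SB mean, which is 0 where DMSO equals SB and 1 where DMSO equals TGFβ1. Among the 1081 called genes higher with TGFβ1 its median was 0.18 (quartiles 0.05 and 0.33), and among the 1389 lower with TGFβ1 it was 0.12 (quartiles -0.06 and 0.32). Taking the DMSO cultures one by one gave medians of 0.197, 0.156 and 0.184 in the higher set and 0.095, 0.134 and 0.124 in the lower set. By this measure vehicle cultures sat near the SB end for most called genes: the DMSO mean lay between the others for 867 of the 1081 genes, nearer SB in 765 of them, and for 909 of the 1389, nearer SB in 751. A position from 0.4 to 0.6, near the middle, was found for 94 and 116 genes.

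**Figure D2:**
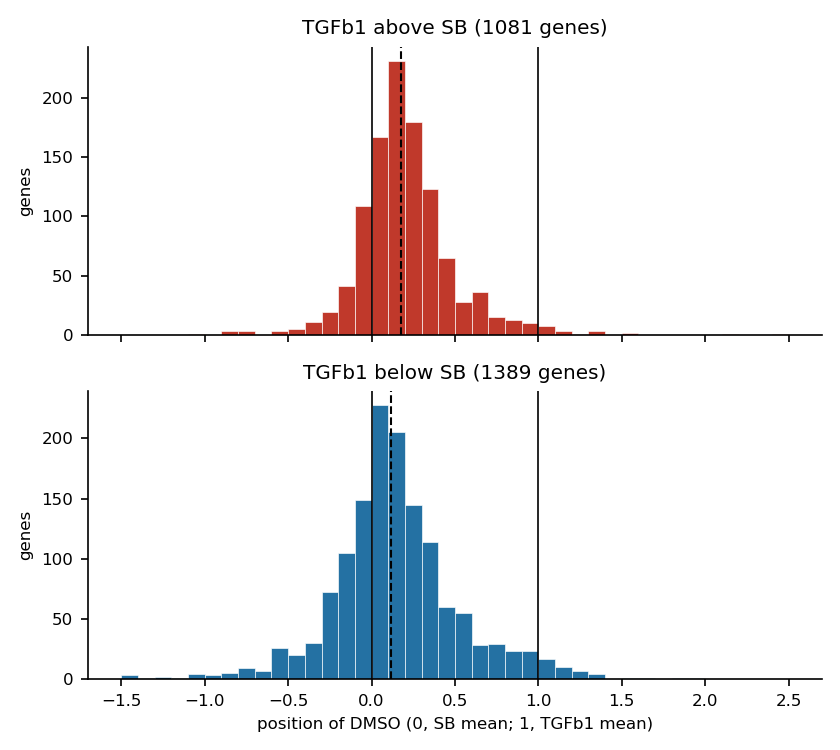
Histograms of the position of the DMSO mean between SB (0) and TGFβ1 (1) for the 1081 called genes higher and the 1389 called genes lower with TGFβ1, with the number of genes on the y axis. Both histograms peak near the SB end, with medians of 0.18 and 0.12.

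Direct targets of the pathway included many graded genes with TGFβ1 highest. Of 23 measured, 12 were higher and 2 lower with TGFβ1 than with SB (median log2 difference 0.66, against 0.06 over all genes), and 11 were graded. Against DMSO, 8 rose and 3 fell with TGFβ1, and none rose and 6 fell with SB. Ccn2, a matricellular growth factor induced by Smads, measured 13.71, 13.67 and 13.62 in TGFβ1 cultures, 10.89, 10.72 and 10.75 in SB cultures and 12.64, 12.67 and 12.57 in DMSO cultures. No group overlapped another, and the TGFβ1 and SB means differed by 2.88 ± 0.04 (log2, SE; limma adjusted p = 1.33e-18). For this gene the SB arm, at -1.84, was the longer one, against 1.05 for the TGFβ1 arm, so that its position was 0.64.

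Feedback inhibitors of the pathway stood in the same order. Skil, a repressor of Smad transcription, averaged 10.28 with TGFβ1, 8.14 with SB and 9.58 with DMSO, and Smad7, which blocks the type I receptor, averaged 10.08, 9.20 and 9.56 in that order. Pmepa1, a membrane protein that sequesters Smads, was 12.67, 11.16 and 12.01. All 3 were graded, and Skil had cultures at 10.38, 10.23 and 10.22 with TGFβ1, 8.22, 8.13 and 8.08 with SB and 9.59, 9.54 and 9.61 with DMSO, without overlap. Ski, a relative of Skil, was instead lower in both treatments, with arms of -0.66 for TGFβ1 and -0.19 for SB on the log2 scale. Tgfbi and Snai2, also on the target list, were lower with TGFβ1 than with SB, with differences of -1.40 and -0.72.

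Ligand genes were split by isoform. Tgfb1 averaged 11.14 in TGFβ1, 9.90 in SB and 10.26 in DMSO cultures, and Tgfb3 averaged 12.53, 11.64 and 12.21 in that order, both graded with TGFβ1 highest. Tgfb2 ran the other way: its cultures measured 10.62, 10.63 and 10.63 with TGFβ1, 12.27, 12.25 and 12.25 with SB and 11.76, 11.58 and 11.58 with DMSO. The 3 groups did not overlap, and the difference between TGFβ1 and SB was -1.63 ± 0.04 (log2, SE; limma adjusted p = 3.09e-15). Inhba, the activin A subunit, was graded with TGFβ1 highest (difference 1.77), and Inhbb and Gdf11 were higher in both treatments. Among 13 genes listed as receptors and latency proteins, 2 were higher and 4 lower with TGFβ1. Lrrc32, a latency protein, and Ltbp2, also listed as a microfibril gene, were higher by 1.98 and 1.43. The co-receptor Tgfbr3, the binding proteins Ltbp4 and Ltbp1 and the activin receptor Acvr2a were lower, with differences of -1.41, -1.11, -0.69 and -0.63. The last was not called after median centring (-0.54). Tgfbr1, which encodes ALK5, the receptor SB blocks, differed by -0.30 ± 0.06, under the fold of a call.

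Many contractile genes of smooth muscle and myofibroblasts were graded in the same direction. Of 23 measured, 15 were higher and 2 lower with TGFβ1 than with SB (median 0.84), and 14 were graded with TGFβ1 highest. Cnn1, the actin-binding protein calponin 1, measured 12.29, 12.10 and 12.02 in TGFβ1 cultures, 8.39, 8.18 and 8.36 in SB cultures and 9.20, 9.16 and 9.08 in DMSO cultures. Its groups did not overlap, and the difference of 3.83 ± 0.07 (log2, SE; limma adjusted p = 6.88e-18) was made of a TGFβ1 arm of 2.99 and an SB arm of -0.83. Tagln, the smooth muscle protein SM22, and Actg2, enteric smooth muscle actin, were graded too, with TGFβ1 minus SB differences of 2.46 and 2.74. Acta2, the actin that marks myofibroblasts, was already bright in every culture, at 13.93, 13.80 and 13.77 with TGFβ1, 12.81, 12.45 and 12.88 with SB and 12.98, 13.09 and 13.08 with DMSO, and differed by 1.12 ± 0.08. The 2 called lower, Smtn and Mylk, encode smoothelin and myosin light chain kinase and were below DMSO in both treatments. Their TGFβ1 minus SB differences of -0.64 and -0.63 were just past the fold and were not called after median centring (-0.55 and -0.54), which gave 17 higher and none lower on this list, and quantile normalization gave 16 and 1. Myocd, the cofactor that drives smooth muscle genes, did not pass (-0.12 ± 0.07).

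Integrins, the matrix receptors, had 7 members higher and 2 lower of 17 (median 0.49), and all 7 were graded. Itga11, a collagen receptor, measured 10.45, 10.48 and 10.42 with TGFβ1, 8.15, 8.07 and 8.03 with SB and 9.93, 9.87 and 9.87 with DMSO. Its groups did not overlap and DMSO stood near TGFβ1 (position 0.76), as it did for Scx, a tendon transcription factor (0.81), and Col8a1, a network collagen (0.71). Itga4 and Itga7 had the longer arm on the TGFβ1 side, 1.69 and 1.62, against -0.49 and -0.20 for SB. The 2 lower integrins were not graded: Itga8 had arms of -1.33 with TGFβ1 and 0.01 with SB, and Itga6 arms of 0.20 and 0.85. The TGFβ1 minus SB difference of Itga6, -0.65, was not called after median centring (-0.56) or quantile normalization (-0.57).

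By the size of the smaller arm, the leading graded genes with TGFβ1 highest were Ctsc, Ptgs2, Crabp2, Ccn2, Moxd1, Tagln, Serinc2 and Tnc. Ctsc, a lysosomal protease that activates granule serine proteases, measured 12.72, 12.64 and 12.67 in TGFβ1 cultures, 9.30, 8.95 and 9.09 in SB cultures and 10.54, 10.43 and 10.51 in DMSO cultures. TGFβ1 exceeded SB by 3.56 ± 0.07 (log2, SE; limma adjusted p = 1.33e-17), with arms of 2.18 and -1.38. Ptgs2, the inducible cyclooxygenase of prostaglandin synthesis, measured 13.36, 13.30 and 13.21 with TGFβ1, 10.48, 10.16 and 10.23 with SB and 11.68, 11.52 and 11.65 with DMSO. Neither gene had overlapping groups, and Ptgs2 differed by 3.00 ± 0.07 (limma adjusted p = 1.27e-16). Crabp2, a retinoic acid carrier, and Tnc, a matricellular glycoprotein, differed by 2.77 and 2.48. Ptges, the synthase that acts on the product of Ptgs2, was graded the other way, with a TGFβ1 minus SB difference of -0.73.

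Pparg, the nuclear receptor that directs adipocyte differentiation, led the graded genes with SB highest. It measured 8.62, 8.59 and 8.51 in TGFβ1 cultures, 12.22, 12.09 and 12.16 in SB cultures and 10.41, 10.33 and 10.44 in DMSO cultures. The difference between TGFβ1 and SB was -3.58 ± 0.05 (log2, SE; limma adjusted p = 1.57e-19), and the vehicle lay almost midway, with arms of -1.82 for TGFβ1 and 1.76 for SB. Fbln7, a fibulin of the matrix, had the same shape: 8.74, 8.90 and 8.90 with TGFβ1, 12.37, 12.08 and 12.34 with SB and 10.41, 10.72 and 10.65 with DMSO. Its groups did not overlap, and its arms were -1.75 and 1.66. Fgf10, a growth factor of mesenchyme that signals to epithelium, measured 8.42, 8.62 and 8.74 with TGFβ1, 11.78, 11.84 and 11.85 with SB and 10.47, 10.42 and 10.53 with DMSO, again without overlap. Hpse2, a heparanase relative, Ndst3, a heparan sulfate sulfotransferase, Aoc3, an amine oxidase of fat and muscle, Scara5, a ferritin receptor, and Ly6a2 completed the 8 leading genes, with differences of -4.59, -3.00, -3.24, -2.82 and -2.97.

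**Figure D3:**
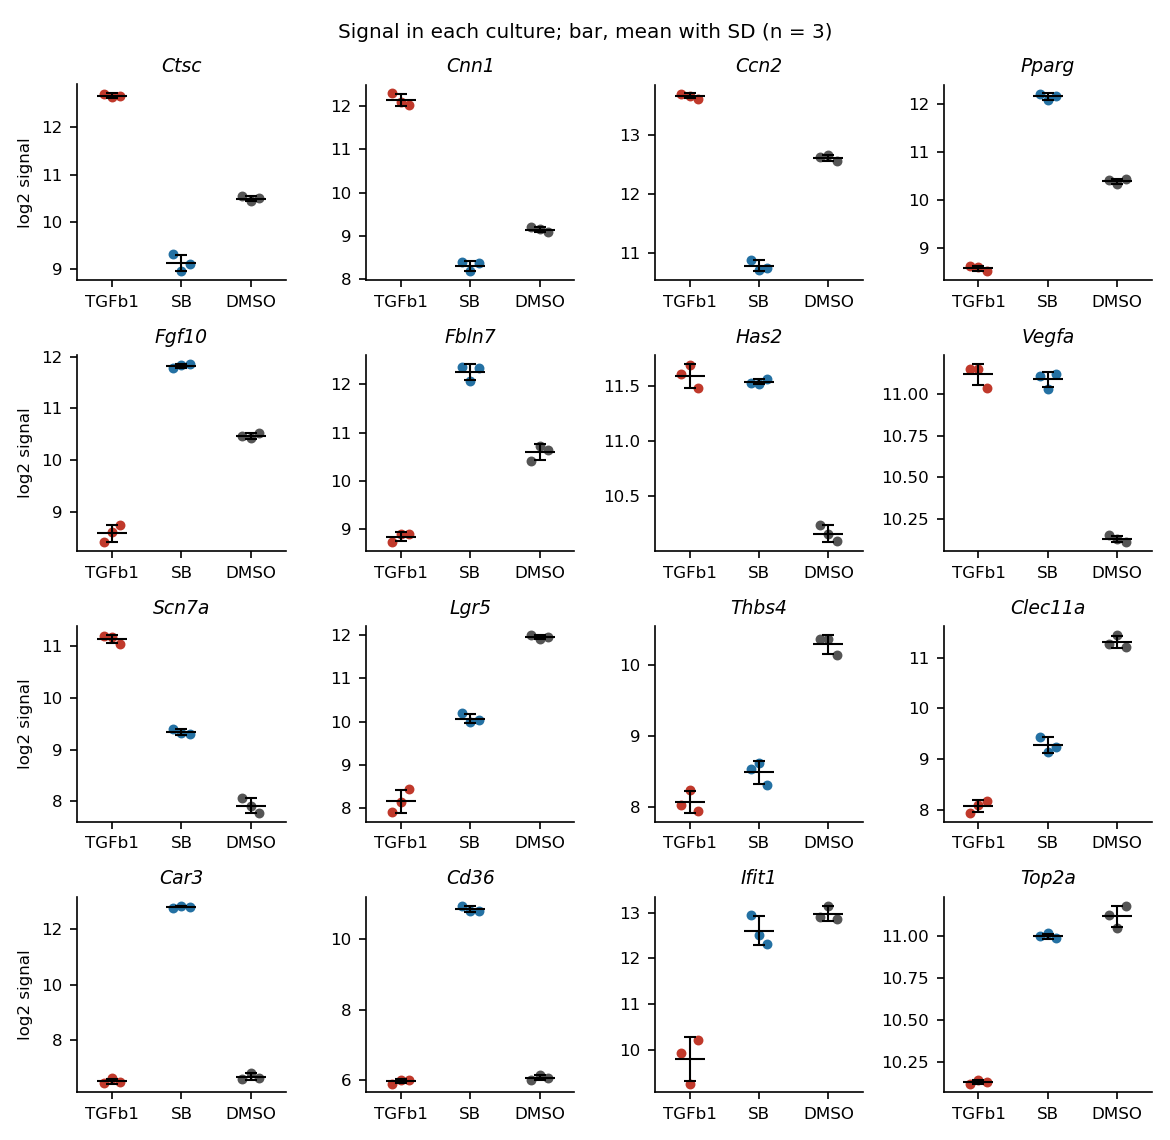
The log2 signal of 16 genes in each of the 9 cultures, with TGFβ1 on the left, SB in the middle and DMSO on the right; points are cultures and bars are group means. For graded genes such as Ctsc and Pparg the DMSO cultures lie between the TGFβ1 and the SB cultures, whereas Has2 and Vegfa are high and Lgr5, Thbs4 and Clec11a low in both treatments.

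Promoters are shown for 3 of these genes that step in opposite directions, since Smads and adipogenic factors act on DNA and their motifs can be read there. Each is the 250 bases before a RefSeq transcription start on GRCm38.p6, all on the plus strand: Ptgs2 at chr1:150099781-150100030, the third of 3 Pparg starts at chr6:115421816-115422065, and Fbln7 at chr2:128863682-128863931. Capitals mark any match, on either strand, to the letters CAGAC (the Smad box), GTCTAGAC (its palindrome), TGACTCA (AP-1), CATTCC (TEAD), TTGCNNAA (C/EBP) or to the direct repeat bound by PPAR with RXR.
Ptgs2: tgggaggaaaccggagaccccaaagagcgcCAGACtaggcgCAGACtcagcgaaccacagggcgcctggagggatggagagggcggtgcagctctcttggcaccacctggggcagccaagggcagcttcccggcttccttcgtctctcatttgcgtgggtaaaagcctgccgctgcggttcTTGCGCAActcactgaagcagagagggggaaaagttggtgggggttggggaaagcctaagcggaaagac
Pparg: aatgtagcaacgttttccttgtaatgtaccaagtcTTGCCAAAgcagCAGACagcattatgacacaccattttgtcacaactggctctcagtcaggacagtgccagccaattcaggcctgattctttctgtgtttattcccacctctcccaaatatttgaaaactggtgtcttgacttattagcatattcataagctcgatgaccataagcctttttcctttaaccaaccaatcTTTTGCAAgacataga
Fbln7: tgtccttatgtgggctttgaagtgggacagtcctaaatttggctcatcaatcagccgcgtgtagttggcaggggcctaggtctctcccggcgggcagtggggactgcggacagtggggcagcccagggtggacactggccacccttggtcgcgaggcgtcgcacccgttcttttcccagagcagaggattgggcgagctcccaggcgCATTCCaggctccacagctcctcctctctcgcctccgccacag
The Ptgs2 window held 2 Smad boxes, 220 and 209 bases before the start, and the C/EBP match TTGCGCAA at 69. The Pparg window held 1 Smad box at 203 and the C/EBP matches TTGCCAAA at 215 and TTTTGCAA at 16, and the other Pparg starts held no match. Fbln7 held 1 TEAD match, 43 bases before its start, and the corresponding window of Ctsc held none.

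Of the searched letters, CAGAC was common in promoters at large and the others were less so. In windows of 300 bases around the start, CAGAC was found in 49.0% of the promoters of graded genes with TGFβ1 highest and 47.9% of those with SB highest. It was in 48.6% of the 19177 promoters of measured genes and 49.6% of all 32851 promoters. CATTCC was found in 15.9%, 14.1%, 13.2% and 14.7%, and TGACTCA in 5.8%, 4.7%, 4.6% and 5.2%, in the same order. TTGCNNAA was found in 6.6%, 11%, 9.8% and 10.8%. These shares describe letters in a window. GTCTAGAC and the PPAR repeat were too rare to compare, with 70 and 13 promoters in all.

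Most adipogenic transcription factors had the direction of Pparg. Of 16 measured, Pparg among them, 10 were lower and 1 higher with TGFβ1 than with SB (median -0.93), and 9 were graded with SB highest. Cebpa, the partner of Pparg in adipocytes, measured 8.08, 8.07 and 8.03 with TGFβ1, 10.22, 10.19 and 10.28 with SB and 8.66, 8.42 and 8.63 with DMSO. Its groups did not overlap, and here the SB arm (1.66) was longer than the TGFβ1 arm (-0.51). Dlk1, listed with these factors but left out of the counts after its values were seen, as a preadipocyte surface protein that restrains differentiation, averaged 9.76, 13.82 and 13.36 with TGFβ1, SB and DMSO, so its distance lay on the TGFβ1 side (-3.60). Cebpd, an early adipogenic factor, was the exception that was graded with TGFβ1 highest (0.84 ± 0.06). Its relative Cebpb was under the fold at 0.54 but was called higher after median centring (0.63). Srebf1 (-0.60) was no longer called then (-0.51).

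Among products of mature adipocytes, more were called in the SB arm than in the TGFβ1 arm. Of 19 lipid carriers and hormones, 12 were lower with TGFβ1 than with SB (median -1.89), but 2 fell with TGFβ1 against DMSO while 14 rose with SB against DMSO (median SB arm 1.28, against -0.01 over all genes). Car3, a carbonic anhydrase abundant in fat, measured 6.44, 6.60 and 6.46 with TGFβ1, 12.79, 12.86 and 12.83 with SB and 6.56, 6.80 and 6.60 with DMSO. TGFβ1 and DMSO cultures overlapped, and the TGFβ1 arm of -0.15 did not pass (limma adjusted p = 0.272). Cd36, a fatty acid transporter, and Adipoq, the hormone adiponectin, had TGFβ1 arms of -0.11 and -0.02 beside SB arms of 4.76 and 4.07. The DMSO means of Car3, Cd36 and Adipoq were already low, at 6.65, 6.08 and 6.57. All lay below the 40th percentile of the probe sets on the DMSO arrays (7.22), so a fall with TGFβ1 could have gone unseen. Lpl, the lipase that releases fatty acids from lipoproteins, was high in DMSO cultures and graded: 8.32, 8.57 and 8.48 with TGFβ1, 12.93, 13.06 and 12.92 with SB and 11.71, 11.66 and 11.69 with DMSO. Fabp4, a fatty acid carrier, was higher than DMSO in both treatments, by 0.47 with TGFβ1 and 3.95 with SB.

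Triglyceride genes included a same-way set. Of 18, 6 were lower with TGFβ1 than with SB and 7 were higher in both treatments than in DMSO, against 1.45% of all genes. The same-way rule asks no fold of a single arm. Against DMSO, 1 of the 18 was called higher and 1 lower with TGFβ1, and 6 higher with SB. Pnpla2, the first lipase of fat breakdown, had arms of 0.61 with TGFβ1 and 0.95 with SB, and Mgll, the last one, 0.49 and 0.54. Dgat1, which adds the final fatty acid, had arms of 0.41 and 0.42, and its relative Dgat2 0.22 and 2.73. For Mgll and Dgat1 the TGFβ1 and SB means differed by -0.06 ± 0.05 and -0.02 ± 0.06.

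Among the genes farthest below SB with TGFβ1, several had vehicle cultures at the SB level. Egfl6, a secreted protein with EGF repeats, measured 6.79, 6.94 and 7.09 with TGFβ1, 12.07, 11.99 and 12.05 with SB and 12.25, 12.13 and 12.19 with DMSO. SB cultures lay just below DMSO cultures (arm -0.16, limma adjusted p = 0.249), and TGFβ1 stood below SB by a log2 difference of -5.10 ± 0.08 (SE; limma adjusted p = 2.09e-18). Mme, the membrane peptidase neprilysin, measured 7.76, 7.91 and 8.17 with TGFβ1, 12.67, 12.75 and 12.65 with SB and 12.63, 12.57 and 12.61 with DMSO. Sfrp2, a secreted modulator of Wnt signals, measured 8.81, 9.04 and 8.86 with TGFβ1, 13.49, 13.49 and 13.47 with SB and 13.53, 13.56 and 13.54 with DMSO. For both, TGFβ1 cultures were far from the other cultures, with TGFβ1 minus SB differences of -4.74 ± 0.09 and -4.58 ± 0.07 and SB arms of 0.09 and -0.06. Cd34, a sialomucin of progenitor cells and fibroblasts, and Adh1, an alcohol dehydrogenase, were graded, with SB arms of 0.37 and 1.04 beside differences of -4.58 and -4.59. Penk, the enkephalin precursor, and Ndst4, a heparan sulfate sulfotransferase, were lower in both treatments, and their SB arms were -0.42 and -0.47. Gm4951 had a difference of -4.88 ± 0.21.

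Several of the genes farthest above SB with TGFβ1 had an SB arm near 0. Mcpt8, a serine protease known from basophils, measured 11.46, 11.42 and 11.48 with TGFβ1, 5.95, 6.07 and 6.03 with SB and 5.94, 6.08 and 6.06 with DMSO. SB and DMSO cultures overlapped (difference -0.01), and TGFβ1 stood above SB by 5.43 ± 0.07 (log2, SE; limma adjusted p = 1.65e-19). Gzme, a granzyme of cytotoxic lymphocytes, Csn3, the milk protein kappa-casein, and Kcnmb1, a potassium channel subunit of smooth muscle, likewise had TGFβ1 arms of 3.82, 3.50 and 3.37 and SB arms of 0.02, 0.02 and 0.01. The DMSO means of Mcpt8, Gzme, Csn3 and Kcnmb1 were low, at 6.03, 6.43, 5.84 and 6.37. All lay below the 40th percentile of the probe sets on the DMSO arrays (7.22), so a fall with SB could have gone unseen. Mmp13, a collagenase, and Ppbp, a chemokine of platelets, were graded instead, with TGFβ1 minus SB differences of 4.63 and 3.84. Olr1, a receptor for oxidized lipoproteins, and Tfpi2, a protease inhibitor, stood above SB by 3.80 and 3.34. They were higher than DMSO in both treatments, but their SB arms of 0.30 and 0.23 were under the fold, beside TGFβ1 arms of 4.1 and 3.6. Lrrc15, a leucine-rich membrane protein of activated fibroblasts, was graded with a difference of 3.36. Mmp10 and Mmp3, stromelysins, were above SB by 2.52 and 2.34.

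Markers of the cells that usually make such proteases were looked at beside them, against the 12.4% of all genes that were called. By limma none of 10 mast cell markers was called between TGFβ1 and SB, with 2 at an unadjusted p under 0.05, and a list of this size would hold few calls at that share. One of these was Mcpt1, another mast cell protease, at 6.26, 6.21 and 6.25 with TGFβ1, 5.61, 5.79 and 5.73 with SB and 5.73, 5.82 and 5.77 with DMSO, which was called after median centring (0.62, against 0.53 as deposited). The mean over that list was 6.50 to 6.58 in TGFβ1 cultures, 6.45 to 6.48 in SB cultures and 6.44 to 6.52 in DMSO cultures. Kit, the defining receptor of mast cells, averaged 6.73, 6.72 and 6.68, and Cpa3, their carboxypeptidase, 6.20, 6.15 and 6.16, in the order TGFβ1, SB and DMSO. Of 14 leukocyte markers, Lyz2, the lysozyme of macrophages, was called (TGFβ1 minus SB -0.79 ± 0.13), Fcer1g, an Fc receptor subunit, was called only without TGFβ1 replicate 1 or SB replicate 2 or 3 (-0.60, -0.69 and -0.59, against -0.57), and Ptprc, the common leukocyte antigen, averaged 6.78, 6.72 and 6.72. Of 13 endothelial markers, Flt1 was higher (0.91) and Tek lower (-3.28), while Pecam1, Cdh5 and Kdr were not called. Skeletal muscle, mesothelial and epithelial lists had 1 called marker each, Acta1, Bnc1 and Sfn, and the neural list had Tubb3 and Stmn2 higher and S100b and Ngfr lower.

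Nearly all interferon-induced genes fell with TGFβ1, and their median TGFβ1 minus SB difference was the lowest of the 43 lists. Of 22 measured, 21 were lower with TGFβ1 than with SB (median -2.20) and 21 lower than with DMSO (median -2.72, against 0.04 over all genes), whereas 2 fell with SB against DMSO. Irf7, the transcription factor that amplifies interferon signals, measured 8.28, 8.28 and 9.15 with TGFβ1, 11.71, 11.29 and 11.18 with SB and 11.68, 11.90 and 11.56 with DMSO. SB and DMSO cultures overlapped, and TGFβ1 cultures were below both. Ifit1, an antiviral RNA-binding protein, varied more between replicates, at 9.93, 9.27 and 10.21 with TGFβ1, 12.95, 12.52 and 12.32 with SB and 12.90, 13.15 and 12.85 with DMSO (TGFβ1 minus SB -2.79 ± 0.37, limma adjusted p = 4.16e-06). The mean over the 22 genes was 8.66 to 9.07 in TGFβ1 cultures, 10.64 to 11.22 in SB cultures and 11.13 to 11.45 in DMSO cultures. Slfn2 was the exception, higher with TGFβ1 than with SB by 0.90. Antigen presentation genes had 6 of 9 lower with TGFβ1 than with SB, or 5 after median centring or quantile normalization. Those lower included the proteasome subunit Psmb8 (-1.78) and the peptide transporter Tap1 (-1.09). None was called by limma with SB against DMSO (1 of 9 at an unadjusted p under 0.05), where 2.4% of all genes were called.

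Complement and acute phase genes were mostly lower with TGFβ1, and chemokines went both ways. Of 15 complement and acute phase genes, 11 were lower and 3 higher with TGFβ1 than with SB (median -1.28). Lbp, which binds bacterial lipopolysaccharide, measured 7.21, 7.31 and 7.34 with TGFβ1, 11.65, 11.71 and 11.59 with SB and 11.51, 11.62 and 11.59 with DMSO. SB and DMSO overlapped, and TGFβ1 and SB differed by -4.37 ± 0.06 (log2, SE; limma adjusted p = 1.65e-19). Masp1, a protease of the lectin pathway, and Cp, the copper carrier ceruloplasmin, were higher with TGFβ1, by 1.68 and 1.46. Of 23 chemokines and inflammatory genes, 8 were higher and 8 lower with TGFβ1 than with SB, or 8 and 5 after median centring and 8 and 6 after quantile normalization. Il6, an inflammatory cytokine, measured 7.62, 7.78 and 7.75 with TGFβ1, 5.90, 5.87 and 5.77 with SB and 5.90, 5.97 and 5.83 with DMSO, so that SB and DMSO overlapped below TGFβ1. Cxcl14 was graded with TGFβ1 highest (2.21), and Ccl11 and Cxcl12, which attract eosinophils and lymphocytes, were graded with SB highest (-2.20 and -1.54).

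Cell division genes and the IGF axis also fell in the TGFβ1 arm. Of 23 mitotic and replication genes, 15 were lower with TGFβ1 than with SB, or 13 after median centring, and 14 lower than with DMSO. By limma none was called with SB against DMSO (6 at an unadjusted p under 0.05), where 2.4% of all genes were called. Mki67, the antigen Ki67, measured 9.93, 10.01 and 9.97 with TGFβ1, 11.30, 11.30 and 11.27 with SB and 11.38, 11.28 and 11.35 with DMSO, so that SB and DMSO overlapped. The CDK inhibitors did not share a direction: Cdkn2b and Cdkn2a were higher with TGFβ1 than with SB by 1.23 and 1.06, and Cdkn1c and Cdkn2c lower, with differences of -3.14 and -1.68. Of 11 IGF genes, 7 were lower with TGFβ1 than with SB (median -1.14), or 6 after median centring. Igf1 measured 10.60, 10.66 and 10.64 with TGFβ1, 12.41, 12.50 and 12.47 with SB and 12.29, 12.32 and 12.35 with DMSO. Its groups did not overlap, but the SB arm was 0.14. The receptors Igf1r and Igf2r were not called.

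About as many genes of amino acid supply and the ATF4 stress response rose with TGFβ1 as were not called. Of 16, 7 were higher than with SB (median 0.47) and 9 higher than with DMSO (median 0.65). By limma none was called with SB against DMSO (8 at an unadjusted p under 0.05), where 2.4% of all genes were called. Asns, asparagine synthetase, averaged 13.14 with TGFβ1, 12.10 with SB and 12.05 with DMSO, and Trib3, a pseudokinase of the same response, 9.33, 8.08 and 8.18. Of 12 glycolysis genes, 4 were higher with TGFβ1 than with SB (33.3%, against 12.4% of all genes), with the hexokinase Hk2 higher by 1.31. By limma none of 13 cholesterol synthesis genes was called between any of the groups, with 10 at an unadjusted p under 0.05 between TGFβ1 and SB, 9 between TGFβ1 and DMSO and 9 between SB and DMSO. Among them Msmo1, Cyp51 and Sc5d, stood just under the fold, at 0.56, 0.55 and 0.54 for TGFβ1 minus SB, and were called after median centring at 0.65, 0.64 and 0.63. Without SB replicate 1, Msmo1 and Cyp51 were also called, at 0.59 each. Among 18 xenobiotic and glutathione enzymes 9 were lower with TGFβ1, and 7 of these were graded, for example Cyp2f2 (-3.04) and Gstm1 (-1.98).

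Growth factor genes went both ways. Of 22 FGF, PDGF, VEGF and angiopoietin genes, 6 were higher and 6 lower with TGFβ1 than with SB (54.5%, against 12.4% of all genes). Fgfr2, a receptor through which Fgf10 signals, measured 8.23, 8.42 and 8.28 with TGFβ1, 11.23, 11.26 and 11.27 with SB and 11.02, 11.06 and 11.05 with DMSO, graded with SB highest (-2.94 ± 0.05). Pdgfa, a ligand of the PDGF receptors, ran the other way, at 12.38, 12.32 and 12.34 with TGFβ1, 10.79, 10.71 and 10.80 with SB and 11.16, 10.99 and 11.04 with DMSO. Neither gene had overlapping groups. Of 24 Wnt genes, 2 were higher and 7 lower with TGFβ1 (37.5%). The lower ones included the receptor Fzd4 (-2.66) and the antagonist Sfrp1 (-1.99), and the ligand Wnt9a was higher by 1.44.

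Genes of the cardiac sarcomere and calcium handling, which the factors are meant to switch on, were called about as often as genes at large: of 22, 3 were higher and none lower with TGFβ1 than with SB (13.6%, against 12.4% of all genes; median 0.17). Ankrd1, a titin-associated protein that stretch induces, measured 10.60, 10.26 and 10.18 with TGFβ1, 7.42, 7.61 and 7.36 with SB and 7.50, 7.50 and 7.76 with DMSO. Its SB and DMSO cultures overlapped, and TGFβ1 and SB differed by 2.88 ± 0.09 (log2, SE; limma adjusted p = 2.78e-14). Actc1, cardiac actin, was higher by 0.94 ± 0.15 and Tnnc1, cardiac troponin C, by 0.64 ± 0.10, the second of which was 0.50 without SB replicate 1, under the fold of a call. Tnnt2, cardiac troponin T, was lower in both treatments, at 8.65, 8.88 and 8.62 with TGFβ1, 8.38, 8.66 and 8.39 with SB and 9.31, 9.42 and 9.26 with DMSO. Myh6 and Myh7, the cardiac myosin heavy chains, differed between TGFβ1 and SB by 0.11 ± 0.14 and 0.18 ± 0.07 and were not called. Of the factor genes, the cardiac regulators Gata4 and Hand2 were not called between TGFβ1 and SB (0.08 ± 0.10 and 0.05 ± 0.06), and Tbx5 was graded with SB highest (-1.15 ± 0.07).

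Matrix genes went in several directions, and type I collagen was not called: Col1a1 and Col1a2 differed between TGFβ1 and SB by -0.12 ± 0.04 and -0.21 ± 0.04. Of 22 collagens, 5 were higher and 6 lower with TGFβ1 than with SB (50%, against 12.4% of all genes). Col8a1, Col10a1, Col12a1, Col5a2 and Col4a5 were graded with TGFβ1 highest, and the 3 chains of type VI collagen, Col6a1, Col6a2 and Col6a3, were graded with SB highest, at differences of -1.23, -1.56 and -2.18. Of 13 elastic fiber genes 7 were lower with TGFβ1 (median -0.62). Eln, the elastin precursor, was lower in both treatments: 8.66, 8.69 and 8.54 with TGFβ1, 10.86, 10.97 and 10.81 with SB and 12.04, 12.27 and 12.19 with DMSO. Of 17 proteoglycans 7 were lower with TGFβ1 and 1 higher (47.1%). Fmod, Kera, Omd and Aspn, all small leucine-rich proteoglycans, were lower in both treatments.

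**Figure D4:**
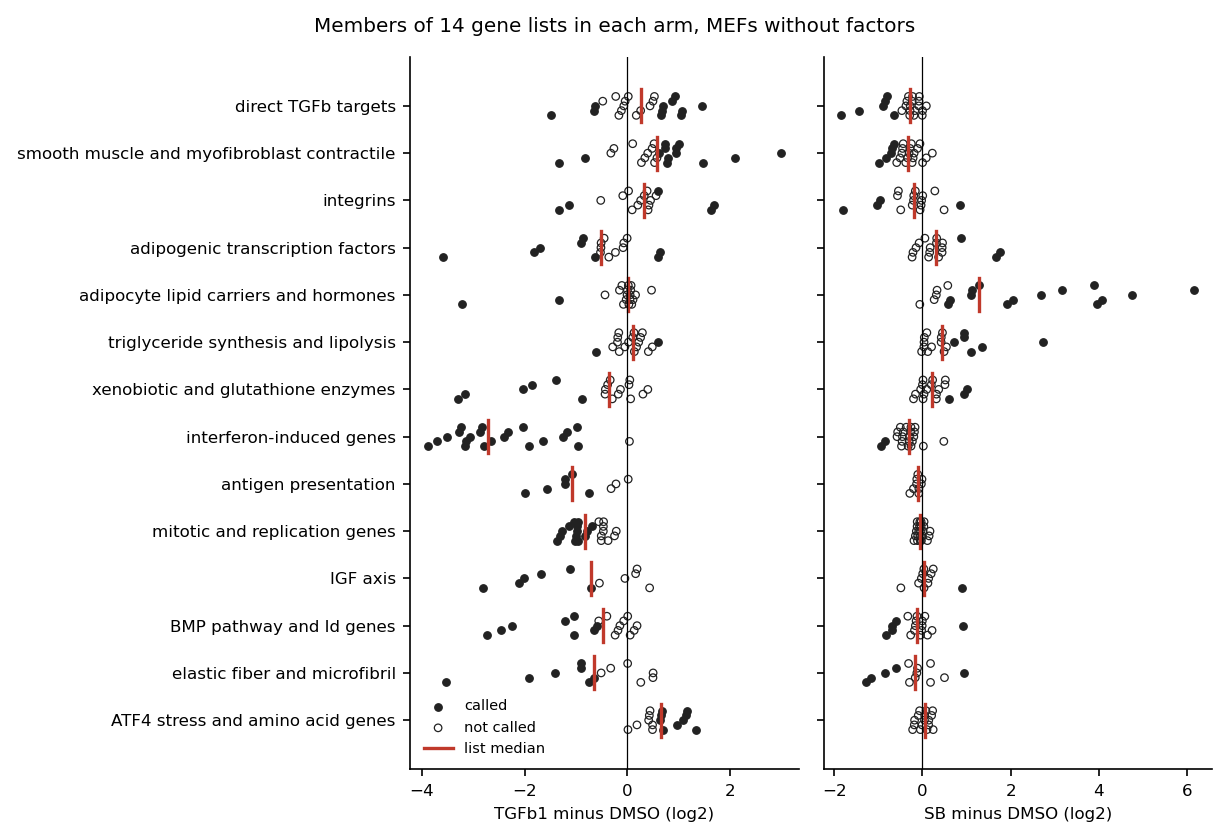
Log2 differences from DMSO of the members of 14 gene lists, with TGFβ1 minus DMSO in the left panel and SB minus DMSO in the right; each point is a gene and each bar a list median, and Dlk1 is plotted with the adipogenic transcription factors. The medians of the contractile genes lie to opposite sides of 0 in the panels (0.58 with TGFβ1 and -0.34 with SB), although 3 of the 23 were lower in both treatments. Interferon-induced genes (median near -2.72 with TGFβ1) move in the TGFβ1 panel, and adipocyte carriers (median 1.28 with SB) in the SB panel.

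By the size of the smaller arm, Lgr5, Clec11a, Thbs4, C1qtnf3, Adamts3, Erg, Angptl1 and Cpxm2 led the genes lower in both treatments. Lgr5, a receptor for R-spondins, measured 7.91, 8.14 and 8.44 with TGFβ1, 10.20, 9.98 and 10.03 with SB and 12, 11.90 and 11.95 with DMSO, with arms of -3.79 and -1.88. Clec11a, a secreted bone growth factor, measured 7.94, 8.09 and 8.17 with TGFβ1, 9.44, 9.14 and 9.24 with SB and 11.27, 11.45 and 11.21 with DMSO. Both genes had 3 separate groups with the vehicle on top, and their summed shifts were -5.67 ± 0.17 and -5.28 ± 0.15 (log2, SE; limma adjusted p = 8.98e-14 and 3.66e-14). Thbs4, a thrombospondin of tendon, measured 8.03, 8.24 and 7.94 with TGFβ1, 8.53, 8.62 and 8.31 with SB and 10.38, 10.37 and 10.15 with DMSO. C1qtnf3, an adipokine relative, had the longer arm with SB (-3.30, against -1.74 with TGFβ1). So did Erg (-2.093, against -1.805) and Cpxm2 (-2.007, against -1.505). Adamts3, a procollagen protease, Erg, an ETS transcription factor, Angptl1, an angiopoietin relative, and Cpxm2, a carboxypeptidase relative, had summed shifts of -4.85, -3.90, -6.21 and -3.51.

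More BMP pathway members fell than rose. Of 18, 1 was higher and 6 lower with TGFβ1 than with SB, against 5.42% and 6.97% of all genes. Their median difference was -0.1, or 0 after median centring. In both treatments 5 were lower, against 2.43% of all genes. Grem1, a secreted BMP antagonist, measured 10.89, 11.04 and 10.89 with TGFβ1, 10.98, 10.85 and 10.98 with SB and 11.57, 11.51 and 11.52 with DMSO. TGFβ1 and SB overlapped and differed by 0.00 ± 0.06, with both arms at -0.60. Chrd, another antagonist, had arms of -0.64 and -0.68, and Bmp4, a ligand, -0.56 and -0.82. Id2, a target of BMP signals, fell in the TGFβ1 arm (-2.24, against 0.12 with SB). Ccn5, a matricellular protein related to Ccn2, also had nearly equal arms of -1.33 and -1.25.

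Among genes higher in both treatments, some ended at like levels. Has2, which makes hyaluronan, measured 11.61, 11.69 and 11.48 with TGFβ1, 11.53, 11.52 and 11.56 with SB and 10.24, 10.16 and 10.09 with DMSO. TGFβ1 and SB cultures overlapped at 0.05 ± 0.06 (limma adjusted p = 0.496), and the summed shift from DMSO was 2.80 ± 0.11 (limma adjusted p = 1.80e-12). Vegfa, the endothelial growth factor, measured 11.15, 11.15 and 11.04 with TGFβ1, 11.11, 11.03 and 11.12 with SB and 10.15, 10.13 and 10.11 with DMSO, with a summed shift of 1.94 ± 0.07 (limma adjusted p = 3.93e-13). Ifi205, a nuclear protein of the interferon-inducible p200 family, was at 12.20, 12.08 and 12.16 with TGFβ1, 12.39, 12.30 and 12.24 with SB and 10.57, 10.73 and 10.59 with DMSO. The vehicle stood apart in all 3 genes. TGFβ1 and SB cultures overlapped for Has2 and Vegfa, whereas the TGFβ1 cultures lay below the SB cultures for Ifi205 (-0.17 ± 0.09, limma adjusted p = 0.139), and a p that misses the threshold does not show equal levels. Scn7a, a sodium channel, and Cmah, a sialic acid hydroxylase, were higher in both but further so with TGFβ1 (arms 3.21 and 1.42, and 2.30 and 1.16). Bmper, a BMP-binding protein, Tnfrsf21, a death receptor, and Tfrc, the transferrin receptor, had summed shifts of 2.99, 2.33 and 2.30.

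The array also reads microRNA genes, through probe sets on the locus or precursor RNA rather than the mature molecule. Of 297 measured, 12 were called between TGFβ1 and SB (4.04%, against 12.4% of all genes), 2 higher and 10 lower with TGFβ1. Mature sequences of those that the results below turn on are given from RefSeq (GRCm38.p6), with the seed (bases 2 to 8) in capitals, since the seed decides which messages a microRNA can pair with.
mmu-miR-99a-5p: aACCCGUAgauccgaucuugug
mmu-let-7c-5p: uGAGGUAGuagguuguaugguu
mmu-miR-199a-3p: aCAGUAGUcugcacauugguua
mmu-miR-199b-3p: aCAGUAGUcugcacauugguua
mmu-miR-181b-5p: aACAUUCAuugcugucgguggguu
mmu-miR-15a-5p: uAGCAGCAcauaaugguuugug
mmu-miR-365-3p: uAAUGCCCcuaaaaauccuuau
mmu-miR-125b-5p: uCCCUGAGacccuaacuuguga
mmu-miR-31-5p: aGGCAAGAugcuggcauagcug
The miR-199a and miR-199b products share the seed CAGUAGU and the whole sequence, although their genes lie on different chromosomes (Mir199a-1 at chr9:21496495-21496564 on the minus strand, Mir199b at chr2:32318460-32318569), and no other seed printed here is shared. Mir99a (chr16:77598936-77599000) and Mirlet7c-1 (chr16:77599657-77599750) are neighbours on the plus strand.

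These neighbours had the lowest TGFβ1 minus SB values of the 12. Mir99a measured 6.53, 6.75 and 6.72 with TGFβ1, 9.55, 9.58 and 9.34 with SB and 9.37, 9.09 and 9.48 with DMSO (difference -2.82 ± 0.12, limma adjusted p = 1.14e-12). Mirlet7c-1 measured 5.67, 5.62 and 5.59 with TGFβ1, 8.06, 7.98 and 7.76 with SB and 7.40, 7.31 and 7.81 with DMSO (difference -2.31 ± 0.11, limma adjusted p = 5.79e-12). In both the TGFβ1 cultures stood apart and SB and DMSO cultures overlapped, although Mirlet7c-1 met the rule for a graded gene. Mir199a-1 and Mir199b were lower with TGFβ1 than with SB (-0.76 and -0.95), as were Mir181b-1 (-1.94), Mir15a (-1.81) and Mir365-1 (-1.41), and the remaining falls were Mir568, Mir505 and Mir380 (-1.34, -1.20 and -0.69). Mir125b-1 (chr9:41581926-41582002) was higher: 9.17, 8.97 and 9.07 with TGFβ1, 8.25, 7.82 and 8.0 with SB and 8.28, 8.22 and 8.50 with DMSO, a difference of 1.05 ± 0.11. Mir31 was higher by 0.63 ± 0.09, and fell short of the fold without TGFβ1 replicate 1 (0.55), without SB replicate 1 (0.57) and with array weights (0.54). Mir380 did so without SB replicate 1 (-0.58).

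The same contrast was available in MEFs given 5 cardiac transcription factors (HNGMT), and the difference between 0TF and HNGMT cells was tested directly. It was called at 1815 genes (9.1%), 764 (3.83%) with a higher and 1051 (5.27%) with a lower TGFβ1 minus SB value in 0TF cells, or 876 and 950 after median centring. Cnn1 had a TGFβ1 minus SB difference of 3.83 in 0TF cells, against means of 10.88 with TGFβ1 and 10.09 with SB in HNGMT cells, and the contrasts differed by 3.04 ± 0.10 (log2, SE; limma adjusted p = 1.01e-13). Gpr149, an orphan receptor, and Csn3 had HNGMT means of 7.38 with TGFβ1 and 7.14 with SB, and of 6.10 and 5.89, beside differences of 3.20 and 3.48 in 0TF cells. Mcpt8 was called in 0TF cells at 5.43 and had HNGMT means of 8.32 and 6.24.

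The most negative differences between 0TF and HNGMT cells included 3 genes of mature adipocytes. Car3, Cd36 and Adipoq had HNGMT means of 6.64 with TGFβ1 and 7.03 with SB, 6.15 and 6.49, and 6.49 and 6.61, and the contrasts differed by -5.94, -4.52 and -3.97. Dgat2 and Nid2, a basement membrane protein, were lower with TGFβ1 than with SB in 0TF cells (-2.51 and -3.51), beside HNGMT means of 11.79 with TGFβ1 and 10.24 with SB for Dgat2 and of 11.33 and 10.75 for Nid2. Mmp3 had HNGMT means of 9.55 with TGFβ1 and 10.99 with SB beside a 0TF difference of 2.34. TGFβ1 minus SB was not tested within HNGMT cells alone. Fgl2, a secreted prothrombinase, was not called in 0TF cells (-0.09 ± 0.10) and had HNGMT means of 8.07 and 11.80. Virus load may also differ between 0TF and HNGMT cells, and it cannot be told apart from the factors.

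**Figure D5:**
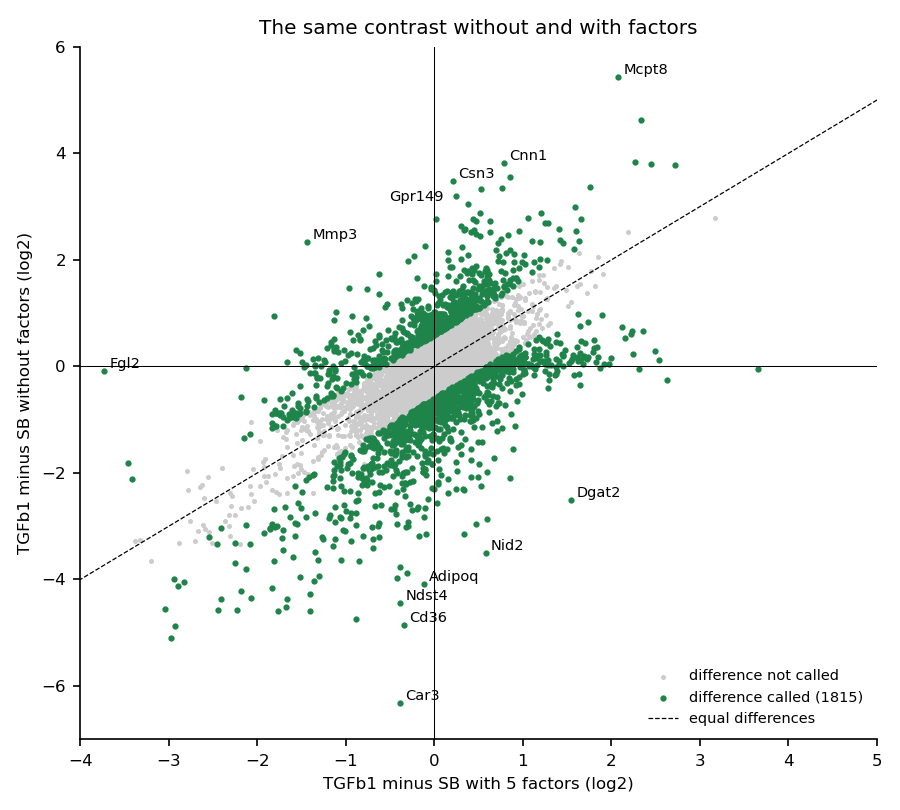
Each point is a gene, with the TGFβ1 minus SB log2 difference in 0TF cells on the y axis and in HNGMT cells (5 factors) on the x axis; the dashed line marks equal differences and green points are the 1815 genes whose difference between them was called. Car3, Cd36 and Adipoq lie far below the line near x = 0, and Mmp3 and Dgat2 lie in the quadrants of opposite sign.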

How the data were processed

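Each of the 27 cultures gave 1 Affymetrix array of the Mouse Gene ST type. The authors deposited one table of log2 signals per probe set, and the labels name MAS5 as the software. The background correction and normalization behind these log2 values are not given in the sources used here, nor are detection calls, so how far dim probes lie above background is unknown. The number of arrays, 3 per group, limits the precision.

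Of 35556 probe sets, 21789 had a single gene symbol in the platform annotation, 1621 several and 12146 none. Where a gene had several (999 genes), the probe set with the highest mean was kept, which gave 19938 genes. limma 3.58.1 (R 4.3.3) was fitted with one coefficient per group over the 18 MEF arrays (lmFit and eBayes), p-values were adjusted by Benjamini-Hochberg over all genes, and the fit was tested on simulated data. Contrasts were TGFβ1 minus SB, each treatment minus DMSO, the sum of both arms, and the difference of TGFβ1 minus SB between 0TF and HNGMT cells.

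Genes named are the 12 highest and the 12 lowest called in TGFβ1 minus SB without overlap of cultures, 8 graded and 8 same-way genes per direction by the smaller arm, 6 per sign of the 0TF and HNGMT difference, up to 4 per list by the smallest p, and called microRNA genes; other list members are named with their values, and were chosen after these were seen. The comparison, the gene lists and the rules were chosen with earlier results of these data known. Alternatives covered the arrays fitted, normalization, dim genes, probe set choice, fold and each replicate. Cardiac fibroblast arrays, treated at another SB dose, were not used here. Figures were drawn with matplotlib 3.10.9.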

Additional observations from a re-analysis of the deposited data

Results flagged for a closer look

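The TGFβ1 minus SB difference was not the same in 0TF and HNGMT MEFs at 1815 genes by the limma test of that difference. The most positive values of 0TF minus HNGMT (log2) were 3.788 for Mmp3, 3.645 for Fgl2, 3.361 for Mcpt8, 3.279 for Csn3, 3.039 for Cnn1 and 2.958 for Gpr149. The most negative were -5.935 for Car3, -4.524 for Cd36, -4.084 for Nid2, -4.065 for Dgat2, -4.064 for Ndst4 and -3.974 for Adipoq. Groups of 3 are too small for a search for single outlying cultures.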

How the results depend on the processing

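The fold threshold moved the counts. When a signal 25% higher or the equal fall was enough, the called genes were 5058 between TGFβ1 and SB, 4565 between TGFβ1 and DMSO, 1276 between SB and DMSO and 4074 for the difference between 0TF and HNGMT cells; at a fold of 2 they were 1029, 845, 150 and 714. Graded genes fell to 538 and same-way genes to 427 at a fold of 2, and to 140 and 120 when each arm had to be 1.5-fold. Leaving out each culture in turn gave 2450 to 2510, 2040 to 2129, 471 to 485 and 1794 to 1853 called genes, 858 to 971 graded genes (979 with all cultures), 686 to 767 same-way genes (774), and a median DMSO position of 0.165 to 0.195 for genes higher with TGFβ1 and 0.104 to 0.126 for those lower. With the replicate number as a block the counts were 2470, 971 graded, 775 same-way and 1818. Same-numbered deviations correlated between -0.08 and 0.152, and 2 of 9 arrays matched their own number best. The values thus showed no pairing by number, but with 3 arrays per group they cannot exclude that same-numbered cultures were handled together. Median centring moved the median TGFβ1 minus SB difference of all genes from 0.055 to 0.147 and gave 606 and 440 graded genes and 352 and 459 same-way genes. Of the 656 list members, 16 lost and 11 gained a TGFβ1 minus SB call after median centring, and 9 and 5 after quantile normalization. Of 203 called values of genes named by the selection rules, 5 fell short of the fold in some setting, the 0.62 of Slc25a20 at 0.57 without SB replicate 2 and the 0.62 of Hprt at 0.57 after quantile normalization and 0.58 without SB replicate 1, beside Tnnc1, Mir31 and Mir380 as given above; 5 gained a call, Fcer1g (-0.57) at -0.60 without TGFβ1 replicate 1 and -0.69 and -0.59 without SB replicates 2 and 3, beside Msmo1, Cyp51, Sc5d and Mcpt1; none of the 235 reversed. The difference between 0TF and HNGMT cells could not be fitted on the 9 0TF arrays alone.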
